A study of Mus musculus with 8 samples.

Results

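The genes described here are 43 ribosome biogenesis genes, all of which were found by gene symbol among the 31228 rows of the deposited table. They comprise the regulator Myc, 5 genes of RNA polymerase I transcription, 3 box C/D and 3 box H/ACA small nucleolar ribonucleoprotein genes, the chaperone gene Nolc1, 3 abundant nucleolar chaperones, 13 small-subunit factors, 11 large-subunit factors and 3 further nucleolar genes. The set was chosen with these expression values in view, among them the high values of Rrp12 and Rrp15 in only some cultures, so its levels and its changes are given as a description.

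Ribosomes are made in the nucleolus, where RNA polymerase I transcribes the precursor of most ribosomal RNA. Small nucleolar ribonucleoproteins guide its chemical modification, and large assemblies of processing factors fold and cut it into the RNAs of the small and the large subunit. MYC is a transcription factor known to raise transcription of many genes of this pathway, and demand for new ribosomes is high in dividing cells.

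RNA was sequenced from 8 samples of C57BL/6 mice: 1 extrahepatic bile duct epithelium, 1 pancreatic duct epithelium, 3 bile duct organoids and 3 pancreatic duct organoids. The epithelia were dissected, digested with collagenase IV and placed in Trizol without culture. Organoids grew in Matrigel in a medium holding B27, N-acetylcysteine, EGF, R-Spondin-1, Noggin, FGF10 and nicotinamide, at first also with Wnt3A conditioned medium and Y27632, and were taken after 3 to 4 passages. The labels do not say whether the organoids of an organ came from separate mice, so the p-values measure only the spread between these cultures, which may be technical. Levels are given as scaled FPKM, that is, the deposited values per exon length and depth after scaling between libraries, and changes as differences on the log2(scaled FPKM + 1) scale, which understates the change of weakly expressed genes.

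The libraries held an implied 12876470 to 20828217 reads. All 10 epithelial markers were at or above 1 FPKM in every library, and their summed level was 2732 and 608 in the epithelia of bile duct and pancreatic duct, beside 4407 to 11012 over the organoids. Both epithelia also held RNA of other cell types: 18 acinar enzyme genes reached sums of 31838 (bile duct) and 66179 (pancreatic duct) there, against 2.04 to 7.87 among organoids, where 17 of the 18 were below 1 FPKM in every culture and 10, Cpa1 and Pnlip among them, were at 0. The 7 fibroblast genes summed to 1415 and 1647 against at most 2.80 in an organoid, the 6 smooth muscle genes to 2220 and 4011 against at most 0.628, the 5 endothelial genes to 287 and 529 against at most 0.0732, and the 7 immune genes to 399 and 406 against at most 11.7. The 5 endocrine genes summed to 94.7 and 221 against at most 0.880. The 5 hepatocyte genes did not separate epithelia from organoids in this way: they summed to 369 and 96.3 in the epithelia, to 15.1, 136 and 34.3 in bile duct organoids 1 to 3 and to 8.36, 9.31 and 77.4 in pancreatic duct organoids 1 to 3. The 12 proliferation markers summed to 102 and 76.3 in the epithelia and to 282 to 594 in the organoids. In bulk RNA, fewer cells of a type and less RNA per cell cannot be told apart, and the part of cell composition in the differences below was not tested.

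The organoid libraries also fell apart in a way that the organ labels do not follow. Mitochondrially encoded ribosomal RNA reached 1585 (mt-Rnr1) and 1726 (mt-Rnr2) scaled FPKM in the bile duct epithelium, and 1290 and 1094 in that of the pancreatic duct. In pancreatic duct organoids 1 and 2 mt-Rnr1 was at 293 and 278 and mt-Rnr2 at 409 and 373. In bile duct organoids 1, 2 and 3 and pancreatic duct organoid 3 both RNAs lay between 1.93 and 5.38. These 4 libraries are called low in mitochondrial rRNA below, and results that rest on them are given with and without them where the design allows it.

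Most of the set was higher in organoids than in the epithelium of the same organ. In bile duct, 27 of the 43 genes were at least 2-fold higher in the organoids with all 3 cultures above the epithelium, where 12.5% of the 15422 genes compared were. In pancreatic duct, 26 of 43 were at least 2-fold higher, against a background of 15%, and 24 were higher in both organs, where 10.5% of 14419 genes were. The median change of the set was 1.15 in bile duct and 1.12 in pancreatic duct (log2), beside -0.09 and -0.09 over all genes. Each organ had a single epithelial library, so these are counts by fold with no test, and the 2 comparisons describe genes chosen with their values known.

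The 38 genes whose symbol does not begin with Rrp were higher throughout: each of them was above the epithelium in every organoid of both organs, as were 38% of all genes in bile duct and 39.2% in pancreatic duct. The 5 Rrp genes were set apart after their values were seen. For the 38 other genes, the organoid mean was 1.48-fold (Noc3l) to 5.89-fold (Myc) the epithelial level in bile duct. In pancreatic duct it was 1.25-fold (Wdr75) to 5.46-fold (Myc). The medians over these 38 genes were 2.65 and 2.51. In bile duct, Utp18 and Polr1c lay just past the 2-fold line with changes of 1.00 and 1.01, and Noc2l and Gnl3 just short of it with 0.94 and 0.93. The counts moved with the scaling of the libraries. With the deposited values unscaled, 35 genes were higher in bile duct and 33 in pancreatic duct, where 17.8% and 20.9% of all genes were. With median-of-ratios scaling the counts were 19 and 20, where 9.68% and 12% of all genes were.

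**Figure D1:**
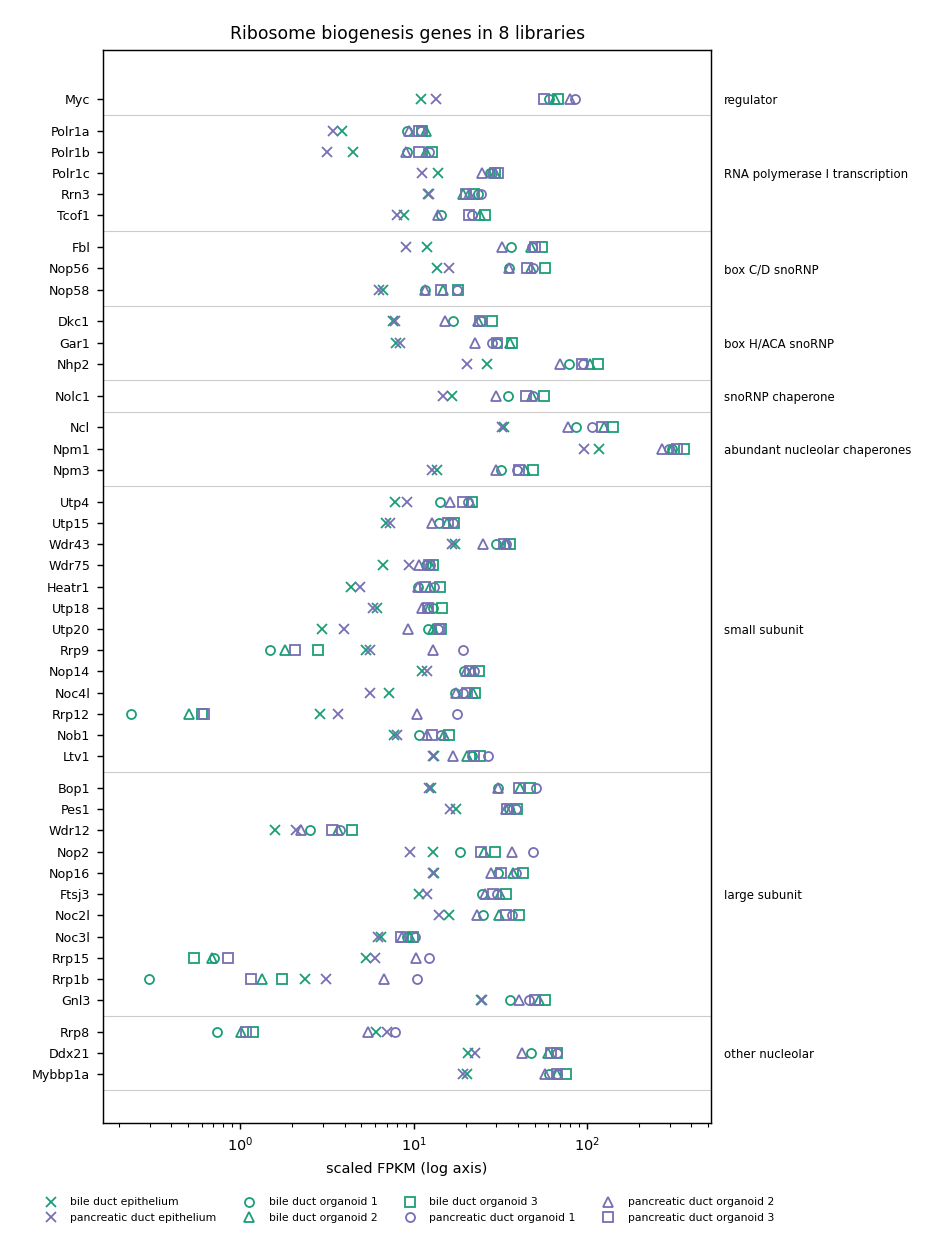
Scaled FPKM (log axis) of the 43 ribosome biogenesis genes in 8 libraries, in rows grouped by role; crosses are epithelia, open circles, triangles and squares are organoids 1, 2 and 3, green is bile duct and violet pancreatic duct. Organoid symbols lie to the right of both crosses in the 38 rows without an Rrp symbol, while in the 5 Rrp rows 4 organoids lie to the left of the crosses.

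Myc, which encodes the transcription factor, had the largest change of the set in both organs. It was at 10.99 and 13.6 in the epithelia of bile duct and pancreatic duct. Its levels were 60.5, 65.8 and 67.8 in bile duct organoids 1, 2 and 3 and 85.4, 80.3 and 56.8 in pancreatic duct organoids 1, 2 and 3. All 6 cultures were above both epithelia, the pancreatic duct cultures spanned a wider range than the bile duct cultures, and the organs overlapped. Pancreatic duct organoids 1 and 2 were above every culture low in mitochondrial rRNA, and their mean was 1.32-fold the mean of those cultures. The change was 2.45 ± 0.08 in bile duct and 2.34 ± 0.31 in pancreatic duct (log2, SD over 3 organoids).

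Of the wider network of MYC partners and antagonists, 10 genes fixed as a list with earlier results of these data known, 2 were at least 2-fold higher and 2 lower in bile duct organoids, and 2 were higher and 0 lower in pancreatic duct organoids. Over all genes, 12.5% were higher and 26.3% lower in bile duct, and 15% and 25.4% in pancreatic duct, so 2 of 10 is near the background. The 2 higher genes were the MYC relatives Mycn and Mycl in both organs. Mycn was at 0.893 and 1.29 in the epithelia, at 13.5, 2.00 and 3.25 in bile duct organoids 1 to 3 and at 9.59, 9.61 and 6.29 in pancreatic duct organoids 1 to 3. Its 3 bile duct cultures spread more widely than those of Myc. Max, which encodes the obligate partner of MYC, was at 27.0 and 23.2 in the epithelia and at 16.8 to 20.1 in the organoids.

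Of the 5 genes of RNA polymerase I transcription, 4 were at least 2-fold higher in both organs, where 10.5% of all genes were. Polr1a encodes the largest subunit of the polymerase. It was at 3.88 and 3.44 in the epithelia, at 9.18, 11.8 and 11.2 in bile duct organoids 1 to 3 and at 11.1, 9.46 and 10.7 in pancreatic duct organoids 1 to 3. The 6 cultures lay close together and all above the epithelia, with changes of 1.26 ± 0.17 and 1.36 ± 0.11. Polr1b and Polr1c, for further subunits, changed by 1.16 and 1.01 in bile duct and by 1.48 and 1.24 in pancreatic duct.

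Rrn3, the factor that recruits the polymerase to the ribosomal DNA promoter, had the smallest change of this group and stayed under 2-fold. It was at 12.1 and 12.3 in the epithelia, at 23.5, 19.2 and 22.3 in bile duct organoids 1 to 3 and at 24.5, 20.9 and 20.1 in pancreatic duct organoids 1 to 3. Tcof1 encodes treacle, a nucleolar scaffold of ribosomal DNA transcription, and varied most between cultures. It was at 8.86 and 7.98 in the epithelia, at 14.4, 24.1 and 25.9 in bile duct organoids 1 to 3 and at 21.7, 13.8 and 21.01 in pancreatic duct organoids 1 to 3. Bile duct organoid 1 and pancreatic duct organoid 2 were the low cultures.

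Promoters of the set were searched for CACGTG, the canonical E-box to which MYC and its partner bind, which reads the same on both strands. RefSeq promoters, 250 bases before to 50 bases after each start site in GRCm38.p6, were given for 37 of the 43 genes. The motif was in 9 of the 37 (24.3%), beside 19.8% of 86 other ribosome biogenesis genes and 10.1% of 13940 protein-coding genes of the table with a promoter entry. Those genes were Rrn3, Utp4, Wdr43, Utp18, Utp20, Ltv1, Pes1, Nop2 and Mybbp1a. In 6 of them the motif lay after the start site, in 3 before it. The 250 bases before the start site of these 3 are shown because there the motif falls in the upstream window, with the motif in capitals, read 5′ to 3′ on the strand of the gene: Rrn3 at chr16:13780449-13780698 on the plus strand, Utp18 at chr11:93885767-93886016 on the minus strand and Nop2 at chr6:125131633-125131882 on the plus strand.
Rrn3: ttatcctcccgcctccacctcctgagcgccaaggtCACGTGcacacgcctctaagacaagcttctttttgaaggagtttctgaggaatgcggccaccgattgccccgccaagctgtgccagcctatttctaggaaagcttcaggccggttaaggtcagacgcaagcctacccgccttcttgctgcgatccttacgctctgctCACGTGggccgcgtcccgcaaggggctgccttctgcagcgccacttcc
Utp18: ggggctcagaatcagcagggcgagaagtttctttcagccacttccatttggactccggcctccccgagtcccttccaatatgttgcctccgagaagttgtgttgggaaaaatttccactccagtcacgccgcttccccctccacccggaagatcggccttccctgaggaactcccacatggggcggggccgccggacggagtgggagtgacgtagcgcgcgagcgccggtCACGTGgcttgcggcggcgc
Nop2: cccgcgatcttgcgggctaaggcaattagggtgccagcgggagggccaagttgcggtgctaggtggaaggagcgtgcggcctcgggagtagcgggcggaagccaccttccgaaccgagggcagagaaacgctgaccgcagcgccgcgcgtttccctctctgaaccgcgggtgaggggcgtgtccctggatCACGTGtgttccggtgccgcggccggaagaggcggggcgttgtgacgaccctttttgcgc
Rrn3 holds the motif at 2 places, whose first bases are 215 and 48 bases before the start site, Utp18 at 20 bases and Nop2 at 60 bases before it. A match describes these letters only, and no binding was measured. The changes of the 3 genes lay close together in bile duct, with 0.79 for Rrn3, 1.00 for Utp18 and 0.84 for Nop2. In pancreatic duct they were 0.77, 0.90 and 1.79, where Nop2 stood apart.

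All 3 core proteins of the box C/D particles, which methylate ribosomal RNA, were at least 2-fold higher in both organs, where 10.5% of all genes were. Fbl, the methyltransferase fibrillarin, changed most. It was at 11.97 and 9.10 in the epithelia, at 36.7, 47.5 and 55.0 in bile duct organoids 1 to 3 and at 48.5, 32.4 and 50.2 in pancreatic duct organoids 1 to 3. Nop58, a core scaffold of the particle, changed least, from 6.64 and 6.31 in the epithelia to 11.6, 14.9 and 18.1 in bile duct organoids and 17.7, 11.6 and 14.3 in pancreatic duct organoids. Both genes were lowest in bile duct organoid 1 or pancreatic duct organoid 2 and highest in bile duct organoid 3.

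The 3 box H/ACA genes, whose particles convert uridine to pseudouridine, were also at least 2-fold higher in both organs, where 10.5% of all genes were. Nhp2, a core protein, was at 26.5 and 20.3 in the epithelia, at 79.3, 104 and 116 in bile duct organoids 1 to 3 and at 94.8, 70.1 and 93.9 in pancreatic duct organoids 1 to 3. Dkc1, the pseudouridine synthase dyskerin, was at 7.57 and 7.84 in the epithelia, at 16.8, 23.5 and 28.4 in bile duct organoids and at 24.6, 15.2 and 24.1 in pancreatic duct organoids. Gar1, another core protein, changed by 1.98 ± 0.15 in bile duct and 1.57 ± 0.21 in pancreatic duct. Nolc1, a chaperone of both kinds of particle, was at 16.7 and 14.7 in the epithelia, at 34.9, 48.3 and 56.4 in bile duct organoids and at 48.8, 29.9 and 44.8 in pancreatic duct organoids. Its highest and lowest cultures were those of Dkc1, bile duct organoid 3 and pancreatic duct organoid 2.

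All 3 abundant nucleolar chaperones were at least 2-fold higher in both organs, where 10.5% of all genes were. Npm1, nucleophosmin, had the highest mean of the set over the 6 organoids, 314, followed by Ncl with 110.02 and Nhp2 with 93.0. Ncl, nucleolin, was at 33.4 and 32.4 in the epithelia, at 86.6, 125 and 141 in bile duct organoids 1 to 3 and at 108, 77.5 and 122 in pancreatic duct organoids 1 to 3. Npm3, a nucleophosmin relative, was at 13.6 and 12.8 in the epithelia, at 31.9, 44.1 and 48.8 in bile duct organoids and at 39.3, 29.9 and 40.5 in pancreatic duct organoids. Npm1 varied least of the 3, its cultures lying 1.33-fold apart at most, and those of Ncl 1.82-fold.

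Small-subunit factors were more divided. Of 13, 6 were at least 2-fold higher in bile duct, 3 in pancreatic duct and 3 in both, while Rrp9 and Rrp12 were lower in bile duct. Over all genes the shares higher were 12.5% in bile duct, 15% in pancreatic duct and 10.5% in both, and 26.3% were lower in bile duct; 3 of 13 in pancreatic duct is near that background. The 3 genes higher in both organs were Heatr1, Utp20 and Noc4l, which act in the early processome that forms on the precursor. Utp20 had the largest change in bile duct, 1.83, and Noc4l in pancreatic duct, 1.60, where Utp20 changed by 1.40. Utp20 was at 2.97 and 3.97 in the epithelia, at 12.2, 12.9 and 14.4 in bile duct organoids 1 to 3 and at 13.9, 9.24 and 13.9 in pancreatic duct organoids 1 to 3. Nob1, the endonuclease that makes a late cut, and Ltv1, a late assembly factor, stayed under 2-fold in both organs, with changes of 0.76 and 0.71 in bile duct and 0.64 and 0.69 in pancreatic duct. Wdr75 had the highest epithelial difference of the set in favour of pancreatic duct, 6.62 against 9.44, and with 10.8 to 12.4 in the pancreatic duct organoids the smallest pancreatic duct change of the 38, 0.29.

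Of the 11 large-subunit factors, 4 were higher in bile duct, 6 in pancreatic duct and 4 in both, with Rrp15 lower in bile duct. Over all genes tested, 12.5%, 15% and 10.5% were higher in bile duct, in pancreatic duct and in both, and 26.3% were lower in bile duct. Bop1, which forms a complex with Pes1 and Wdr12, had the highest positive change in bile duct, 1.55, and with 1.62 in pancreatic duct came after Nop2, at 1.79. Bop1 was at 12.6 and 12.3 in the epithelia, at 30.6, 41.4 and 46.9 in bile duct organoids 1 to 3 and at 50.9, 30.8 and 40.7 in pancreatic duct organoids 1 to 3. Its partner Pes1 varied least of all genes of the set between cultures, its highest and lowest organoid differing 1.16-fold, with changes of 1.04 ± 0.08 and 1.09 ± 0.11. The other partner, Wdr12, was among the weakest genes of the set, at 1.59 and 2.09 in the epithelia and 2.25 to 4.39 in the organoids.

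Nop2, a ribosomal RNA methyltransferase, was the only gene without an Rrp symbol whose organoids lay more than 2-fold apart. It was at 13.0 and 9.52 in the epithelia, at 18.7, 25.4 and 29.6 in bile duct organoids 1 to 3 and at 49.0, 36.8 and 24.7 in pancreatic duct organoids 1 to 3. Pancreatic duct organoids 1 and 2, the cultures with high mitochondrial rRNA, were above the other 4, and their mean was 1.75-fold the mean of the 4. Mybbp1a and Ddx21, nucleolar proteins outside these groups, were higher in both organs. Mybbp1a was at 20.2 and 19.3 in the epithelia, at 60.5, 67.2 and 75.4 in bile duct organoids and at 67.2, 57.2 and 66.9 in pancreatic duct organoids.

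The 5 genes with an Rrp symbol did not follow the other 38. The read filters used by the authors are not given in the sources used here, and whether reads were removed from some libraries by a step aimed at ribosomal RNA or at these gene names was not tested, so a low value of an Rrp gene may not be a low transcript level. Rrp12 (chr19:41862852-41896153, minus strand), a factor of small-subunit maturation and export, was at 2.89 and 3.69 in the epithelia of bile duct and pancreatic duct. It was at 0.233, 0.508 and 0.603 in bile duct organoids 1 to 3 and at 17.7, 10.5 and 0.621 in pancreatic duct organoids 1 to 3. Pancreatic duct organoids 1 and 2 were thus above both epithelia, and the other 4 cultures, pancreatic duct organoid 3 among them, below both. The highest and lowest culture lay 76.0-fold apart.

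Rrp15 (chr1:186720978-186749358, minus strand), a factor of large-subunit maturation, had the same 2 high cultures. It was at 5.34 and 5.97 in the epithelia, at 0.708, 0.692 and 0.541 in bile duct organoids 1 to 3 and at 12.3, 10.3 and 0.855 in pancreatic duct organoids 1 to 3. These levels rest on 35 to 63 reads in the 4 low cultures and on 635 and 601 reads in the 2 high ones, as recovered from the deposited values. Whole reads could not be recovered for Rrp12 and Rrp1b.

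Rrp9, a protein of the particle that carries the U3 RNA, was at 5.32 and 5.61 in the epithelia, at 1.49, 1.81 and 2.82 in bile duct organoids 1 to 3 and at 19.3, 13.0 and 2.07 in pancreatic duct organoids 1 to 3. Rrp1b, a nucleolar protein of large-subunit assembly, was at 2.35 and 3.14 in the epithelia, at 0.298, 1.33 and 1.74 in bile duct organoids and at 10.5, 6.77 and 1.16 in pancreatic duct organoids. Rrp8, a nucleolar methyltransferase, was at 6.04 and 6.99 in the epithelia, at 0.739, 1.01 and 1.18 in bile duct organoids and at 7.86, 5.44 and 1.07 in pancreatic duct organoids. In each of the 5 genes the 4 low cultures were below both epithelia, and no low culture reached a high one. In Rrp8 only pancreatic duct organoid 1 was above both epithelia, while in the other 4 genes pancreatic duct organoids 1 and 2 both were.

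The 2 high cultures were those with high mitochondrial rRNA, and the 4 low cultures those with little of it. The mean of the 2 high cultures over the mean of the 4 low ones was 28.7-fold for Rrp12, 16.2-fold for Rrp15, 7.89-fold for Rrp9, 7.62-fold for Rrp1b and 6.64-fold for Rrp8. Among 13349 genes at or above 1 FPKM in some organoid, 34 (0.255%) were at least 2-fold higher in both of these cultures than in every other one, and the 5 Rrp members were among them. So were mt-Rnr1 and mt-Rnr2. The 34 also held genes with neither an Rrp symbol nor an rRNA name, of which some are given here, chosen after their values were seen. The same ratio of means was 69.2-fold for Hsp90aa1, a heat shock chaperone, 14.2-fold for Krt14, a keratin, and 12.8-fold for Rpl12, a ribosomal protein. For Gm26917 and CT010467.1, neighbours on chromosome 17, it was 49.9-fold and 16.4-fold. The part of mitochondrial rRNA in these values was not tested.

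The table held 3 further genes with an Rrp symbol, looked up after these values were seen, and they showed the same 2 high cultures. Rrp1, a large-subunit factor, was at 33.7 and 35.3 in the epithelia, at 2.30, 3.94 and 3.59 in bile duct organoids 1 to 3 and at 92.3, 78.2 and 3.50 in pancreatic duct organoids 1 to 3. Rrp7a was at 6.29 and 5.51 in the epithelia, at 0.672 to 0.975 in the 4 low cultures and at 16.7 and 12.7 in the 2 high ones. Rrp36 was at 15.8 and 11.9 in the epithelia, at 3.83 to 4.28 in the low cultures and at 26.6 and 23.0 in the high ones. All 8 genes with an Rrp symbol, which lie on 7 chromosomes and act at different steps, were thus among the 34. Of the 103 other ribosome biogenesis genes found, 5 were among the 34, namely these 3 and the exosome genes Exosc5 and Dis3. Tsr1, Tsr2 and Tsr3, small-subunit factors, lacked the split: the mean of the same 2 cultures was 0.967, 0.883 and 0.963 of the mean of the other 4.

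**Figure D2:**
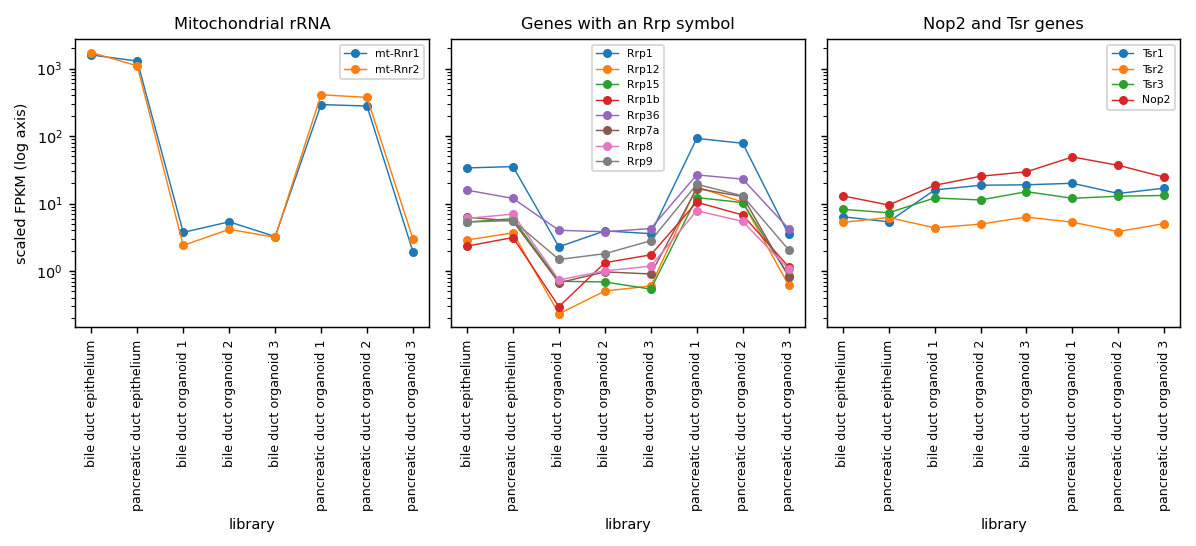
Scaled FPKM (log axis) in the 8 libraries of the mitochondrial ribosomal RNAs, of the 8 genes with an Rrp symbol and of Nop2 and the 3 Tsr genes; each line joins the values of 1 gene. The Rrp genes and mitochondrial rRNA are low in the same 4 organoid libraries, while the Tsr genes stay level across the organoids.

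For the change from epithelium to organoid, the Rrp genes therefore depended on which cultures were taken. In bile duct, where every organoid was low in mitochondrial rRNA and the epithelium was not, Rrp9, Rrp12, Rrp15 and Rrp8 were at least 2-fold lower, where 26.3% of all genes were, with changes of -1.08, -1.43, -1.95 and -1.84. Culture and low mitochondrial rRNA cannot be told apart there. In pancreatic duct 0 of the 43 were at least 2-fold lower, where 25.4% were. Without pancreatic duct organoid 3, the change of Rrp12 was 1.65 in place of 0.59, that of Rrp9 1.35 in place of 0.53, that of Rrp1b 1.19 in place of 0.48 and that of Rrp15 0.82 in place of -0.09. Rrp8 stayed below its epithelium, with -0.08 in place of -0.70. Without that culture 29 of the 43 genes were at least 2-fold higher, 3 of them Rrp genes, against a background of 15.8%. With the deposited values unscaled, the change of Rrp15 over all 3 cultures was 0.15, the opposite sign.

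**Figure D3:**
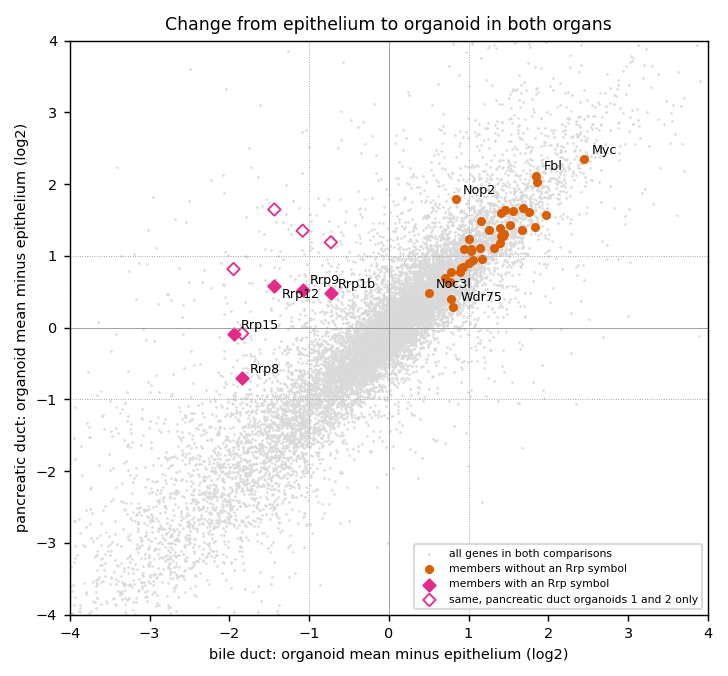
Change from epithelium to organoid (log2 difference of the organoid mean from the epithelium) in bile duct (x axis) and pancreatic duct (y axis); grey points are all genes compared in both organs, within 4 on each axis, dotted lines mark 2-fold. The 38 genes without an Rrp symbol (orange) lie in the upper right, and the 5 Rrp genes (filled diamonds) lie left of 0 and move up when only pancreatic duct organoids 1 and 2 are used (open diamonds).

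Other genes of the pathway, a list of 106 fixed with earlier results of these data known, were compared in the same way. Of the 103 found, bile duct organoids had 41 at least 2-fold higher and 6 lower, pancreatic duct organoids 30 higher and 1 lower, and 26 were higher in both. Over all genes 12.5% were higher and 26.3% lower in bile duct, 15% higher and 25.4% lower in pancreatic duct, and 10.5% higher in both. Their median change was 0.80 and 0.68, beside 1.15 and 1.12 in the set, whose members were chosen with their values known, and the difference was not tested. Ranked by the smaller change of both organs, the large-subunit factor Rrs1 and the kinase Nol9 came first. Rrs1 was at 10.3 and 7.11 in the epithelia, at 31.3, 37.4 and 40.5 in bile duct organoids 1 to 3 and at 40.4, 27.8 and 38.4 in pancreatic duct organoids 1 to 3. Nol9 was at 4.59 and 5.49 in the epithelia and at 16.4 to 22.4 in the organoids. Znrd1, a polymerase I subunit, was the gene lower in pancreatic duct, at 31.5 in the epithelium and 11.2 to 13.5 in its organoids.

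The epithelia of the 2 organs were alike in these genes. None of the 43 differed 2-fold between them, where, of 15536 genes, 9% were higher by that much in bile duct and 4.69% in pancreatic duct. The median difference of the set was 0.01 (log2, bile duct minus pancreatic duct), 22 genes were higher in bile duct, and the differences ran from -0.45 (Wdr75) to 0.41 (Nop2). There was 1 library on each side and no test.

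Organoids of bile duct and pancreatic duct were compared with limma, the comparison with replicates on both sides. None of the 43 genes differed at an adjusted p under 0.05, nor did any of the 11978 genes tested (0%). At an unadjusted p under 0.05, 298 genes (2.49%) passed, and of the 41 genes of the set that were tested, Rrp8 did, with a log2 difference of -1.32, an SE of 0.53 and a limma adjusted p of 1.00. limma's voom on the recovered reads also called 0 of 10176 genes, 240 of them at an unadjusted p under 0.05. Rrp12 and Rrp15 were at or above 1 FPKM in only 2 organoids and were not tested in this fit. In a limma fit without the filter on low values, their differences were -2.29 (SE 0.90, unadjusted p 0.044) and -1.99 (SE 0.76, unadjusted p 0.040). Neither passed the adjusted threshold there. A p that misses the threshold does not show that the organs are alike.

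Gar1 and Utp18 were the 2 genes of the set whose bile duct organoids all lay above the pancreatic duct organoids, where 3.21% of genes did so, and 2 of 41 is near that background. With the deposited values unscaled neither gene kept the organs apart. Bile duct organoid 1 was then at 30.3 (Gar1) and 12.9 (Utp18), below pancreatic duct organoid 3 at 33.0 and 13.2. Gar1 was at 30.20, 35.9 and 37.0 in bile duct organoids and 28.2, 22.7 and 30.17 in pancreatic duct organoids, a difference of 0.34 with an SE of 0.15. In 0 of the 41 did all pancreatic duct organoids lie above, where 3.52% of genes did. The difference of Myc was -0.17 with an SE of 0.17 and that of Rrp9 -1.68 with an SE of 0.69. A term for low mitochondrial rRNA leaves only pancreatic duct organoid 3 to set against the 3 bile duct organoids, a lone sample assumed to vary like the others, and gave 0.18 for Myc and -0.04 for Rrp9. For Rrp9 the term takes up the 2 cultures that are high. Without pancreatic duct organoid 3, 10 genes passed limma's adjusted threshold, namely mt-Rnr1, mt-Rnr2, Rrp1, Rrp36, Hsp90aa1, Krt14, Rpl12, AI506816, Gm10275 and Gm26917, and 0 of the set. The smallest adjusted p in the set was then that of Rrp9, 0.152, with a difference of -2.50 and an SE of 0.26.

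Across the 6 organoids the set had a median spread near that of all genes, and a smaller share of it lay at least 2-fold apart. Its median range, highest minus lowest culture, was 0.60 (log2), beside 0.59 over 13349 genes, and 6 of 43 genes, the 5 Rrp genes and Nop2, lay at least 2-fold apart, where 24% of genes did. Of the 38 genes without an Rrp symbol, 30 were highest in bile duct organoid 3 and 24 lowest in pancreatic duct organoid 2, where 17.5% and 22.9% of all genes tested were. In bile duct organoid 3, 37 of the 38 were above their own mean over the 6 organoids, all but Myc, and 49.3% of the 11978 tested genes were. In pancreatic duct organoid 2, 2 of the 38 were above it, Myc and Nop2, and in bile duct organoid 1, 3 were, Ltv1, Rrn3 and Utp18.

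The median deviation of the 38 genes from their organoid mean was -0.19, 0.08 and 0.22 in bile duct organoids 1, 2 and 3 and 0.13, -0.24 and 0.03 in pancreatic duct organoids 1, 2 and 3 (log2). The median range of the 38 genes over the 6 organoids was 0.59, while their median change from the epithelium was 1.21 for bile duct and 1.26 for pancreatic duct. In Wdr12, the range of 0.73 lay close to its change of 0.78 in bile duct and above that of 0.40 in pancreatic duct. The summed level of the 12 proliferation markers was 384, 558 and 594 in bile duct organoids 1 to 3 and 460, 282 and 517 in pancreatic duct organoids 1 to 3. It was highest in bile duct organoid 3 and lowest in pancreatic duct organoid 2, as the median deviation of the 38 genes was, and its part in the values of the set was not tested. Myc was highest in pancreatic duct organoid 1 and lowest in pancreatic duct organoid 3.

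**Figure D4:**
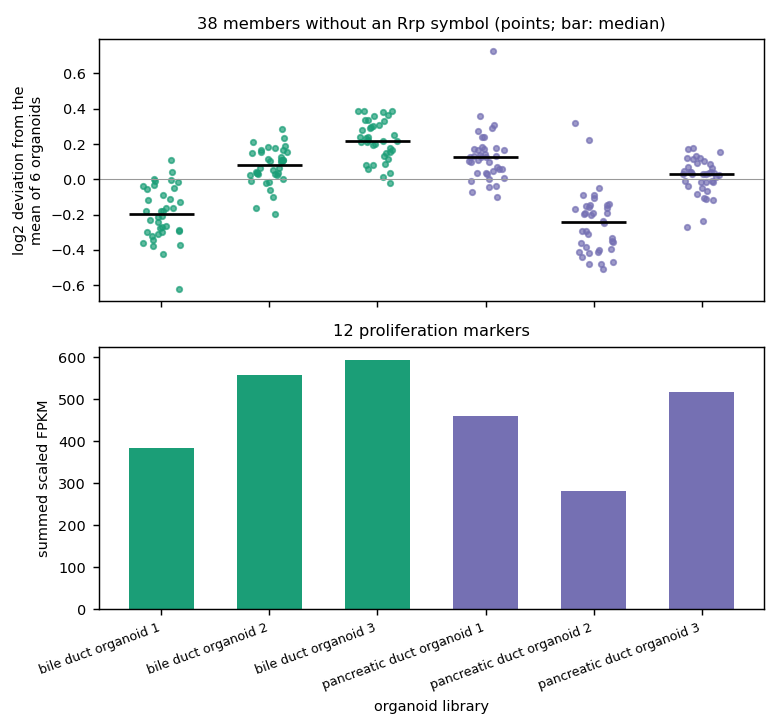
Top, log2 deviation of each of the 38 genes without an Rrp symbol from its own mean over 6 organoids, by organoid library, with the median as a bar; bottom, summed scaled FPKM of 12 proliferation markers in the same libraries (green bile duct, violet pancreatic duct). Most points lie below 0 in bile duct organoid 1 and pancreatic duct organoid 2, and above 0 in bile duct organoid 3, where the median is 0.22.

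In 10 of the 43 genes, Bop1, Dkc1, Gnl3, Heatr1, Mybbp1a, Nhp2, Nop56, Nop58, Rrp9 and Wdr43, the gene overlaps another one at or above 1 FPKM in the table. The library kit named in the labels is not stated to keep strand, so reads of these partners cannot be told apart from those of the gene. Rrp12, Rrp15, Rrp1b and Rrp8 overlap no such gene.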

How the data were processed

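Poly-T beads and the NEBNext Ultra kit were used to prepare the 8 libraries, per the labels' protocols. The deposited table holds FPKM made by the authors for 31228 genes, 1 column per library, and no header names the unit, which was read from the values. Bowtie2 2.2.3, HISAT2 2.1.0, TopHat2 and HTSeq 0.6.0 are named in the submitters' processing notes, without role or order. The genome build and the use of strand in counting are not given in the sources used here. Exon lengths of GENCODE M21 (exons of a gene merged) turned the FPKM into whole reads, within 0.05 of a read in all 8 libraries, for 28310 genes (90.7%), and the read numbers quoted come from this. Gene coordinates are those of the table. They equal those of GENCODE M21, which is on GRCm38, for 28635 of 31141 genes and for 36 of the 43 described.

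Libraries were scaled by a trimmed mean of log ratios (30% of log ratios and 5% of mean levels trimmed) over 16541 genes at or above 1 FPKM in some library. Values were taken as log2(scaled FPKM + 1), so a pseudocount of 1 FPKM was used. A gene counted as higher or lower in organoids when the mean log2 difference reached 1 with all 3 organoids on the same side and its level was at least 1 FPKM in the epithelium or the organoid mean. The organoid groups were compared with limma 3.58.1 (R 4.3.3) with intensity trend, on genes at or above 1 FPKM in at least 3 of the 6 organoids. Benjamini-Hochberg adjustment at 0.05 was over all genes tested. The fit was run on simulated data with independent genes of equal spread and no split of the cultures, which does not bear on the counts given here. Low mitochondrial rRNA means mt-Rnr2 below 50 scaled FPKM, a limit set after seeing the data, as were the fits that use it. The members, the lists and the groups by role were chosen with earlier results of these data known. Values in every library were given for Myc, Rrp12 and Rrp15 and, in each role, for the gene with the widest organoid spread and those with the largest and smallest change, ranked by the smaller change of both organs; other members were named freely. Of the other pathway and MYC network genes, Mycn, Nol9 and Rrs1 had the largest and Rrp1, Rrp7a and Rrp36 the smallest changes by the same rule, and further genes were chosen after their values were seen. Python 3.11.15 with pandas 2.3.3 was used. Alternatives tried were other scalings, another pseudocount, other filters, other fold limits, leaving out each organoid, voom and a replicate block. Protein sequences were not used here.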

Additional observations from a re-analysis of the deposited data

How the results depend on the processing

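Each organ had 1 epithelial library and the organoid numbers were small, so counts by fold carry no test. Genes at least 2-fold higher numbered 19 to 35 in bile duct and 20 to 33 in pancreatic duct over the scalings, and 21 to 30 and 24 to 29 on leaving out 1 organoid, while a limit of 1.5-fold gave 37 and 35, with 23.2% and 25.3% of all genes tested past it. The median of 9975 genes at or above 1 FPKM in every library moved by 0.24 and 0.26 (log2, bile duct and pancreatic duct) with deposited values and by -0.17 and -0.17 with median-of-ratios scaling. Of all genes called by fold, 32.2% in bile duct and 37.1% in pancreatic duct were higher, against 43.4% and 48.6% with deposited values. The median change of the set was 1.39 in bile duct and 1.38 in pancreatic duct with deposited values, and in pancreatic duct 0.94 with median-of-ratios scaling and 1.28 with a filter at 10 FPKM. That filter left 0 genes lower in bile duct, because the Rrp genes are below it. On leaving out 1 organoid, the bile duct median was 1.00 to 1.29, the pancreatic duct median 1.04 to 1.29, genes lower in bile duct numbered 3 to 4 and those lower in pancreatic duct 0 to 1, the 1 being Rrp8 without organoid 1. The median difference between the epithelia was -0.037 with equal sums after leaving out mitochondrial and acinar genes, against 0.01, and the cause was not tested. In the comparison of organoids, limma called 0 to 10 genes on leaving out 1 organoid, the 10 without pancreatic duct organoid 3, and 0 of the set in every setting; 0 to 6 of the set passed an unadjusted p under 0.05. The difference of Myc was 0.18, against -0.17, with a term for low mitochondrial rRNA and, by construction the same, in the low libraries only, both setting pancreatic duct organoid 3 alone against 3 bile duct organoids. Whether the replicate numbers pair the samples could not be told. Same-numbered organoids had correlations of their deviations of -0.11, -0.44 and 0.48, and those with unlike numbers ran from -0.60 to 0.65. Deviations from a mean of 3 cultures force such correlations to hold both signs, so they cannot exclude pairing. With the replicate block, 0 genes passed an adjusted p under 0.05 and 282 an unadjusted one.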
